A study of Homo sapiens with 2 samples.

Results

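Amino acid and neurotransmitter transporters of the solute carrier (SLC) superfamily were compared between Ca9-22 cells with a RUNX2 vector and Ca9-22 cells with an empty vector. Ca9-22 is a human line established from a gingival carcinoma. Both groups were stably transduced and kept under blasticidin for selection, so the controls also carry a vector and went through the same selection. RUNX2 is a runt-domain transcription factor known for its role in bone formation, and the comparison asks which transcripts differ when its vector is present. Members were all probe sets whose only gene symbol starts with SLC1A, SLC3A, SLC6A, SLC7A, SLC36A, SLC38A or SLC43A, without SLC7A11 and without antisense or opposite-strand genes. This gave 135 probe sets of 55 genes, among 41091 probe sets of 19775 genes with a symbol of their own.

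Each group held 1 array, so no replicate error and no test can be given, and a difference is described by its size alone. Levels are summarised probe set intensities in arbitrary units, with the array labelled RUNX2 multiplied by 0.966 to equal the trimmed means of the arrays. A probe set was counted as measured if it exceeded the median of its array, 51.8 on the array labelled RUNX2 or 55.3 on the empty vector array. Where 1 of the values lay below that floor, it was raised to it and the fold is written "at least". Each gene is represented by whichever measured probe set has the largest average log2 level. Between probe sets of the same gene, log2 ratios had an SD of 0.29 over 5614 genes, and of 0.23 over the 13 transporter genes with several probe sets above both floors. This is a spread between probe sets within the arrays, of which the technical part is not known, and not a replicate error.

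The labels rest on the vector names alone. RUNX2 probe set 216994_s_at read 854 on the array labelled RUNX2 and 204 on the empty vector array, and 221282_x_at read 353 and 102 in the same order. In contrast, 232231_at read 433 on the array labelled RUNX2 and 1746 on the empty vector array. The remaining RUNX2 probe sets, 221283_at, 236858_s_at and 236859_at, were under the floor on both arrays. Because the measured RUNX2 probe sets go both ways, the targeted gene does not settle which array is which, and every direction here depends on the labels. Squamous markers fitted the labelled cell type. Of 12 listed, 9 had a probe set with 1 symbol, and all 9 were measured. Their levels summed to 49711 on the array labelled RUNX2 and 39312 on the empty vector array, and their log2 ratios ran from -0.24 for PKP1, with DSG3 and TRIM29 also below 0, to 1.43 for KRT14. Of 12 neuron and glia markers listed, 11 had a probe set with 1 symbol and 7 were measured. Levels summed over the 11 to 1109 on the array labelled RUNX2 and 1766 on the empty vector array. SYT1, a synaptic vesicle protein, had 385 and 814 in that order, and GAD1, which makes the transmitter GABA, had 91.4 and 217, while GFAP, an astrocyte filament protein, went the other way with 92.9 and 68.6. The other 4 measured markers, ALDH1L1, MBP, RBFOX3 and SNAP25, had log2 ratios between -0.43 and -0.23, and AQP4, STMN2, SYP and GAD2 were not above the floor on either array. Of fibroblast, leukocyte and endothelial markers, 1 of 7, 1 of 5 and 2 of 5 were measured, beside 12729 of all 19775 genes. The leukocyte list held 7 genes, 5 of them with a probe set of 1 symbol. The fibroblast marker COL1A1 read 1553 on the array labelled RUNX2 and 1937 on the empty vector array. The leukocyte marker LCP1 read 1073 and 775 in that order, so both lay far above the floor. The endothelial markers PECAM1 and VWF were near the floor, with log2 ratios of -0.32 and -0.44. The part of these markers in the results was not tested.

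Amino acids enter cells through several transporter families that differ in ion coupling and in substrate. SLC7 light chains such as LAT1 pair with an SLC3 heavy chain and exchange an incoming amino acid for an outgoing one, whereas SLC38, SLC1 and SLC6 carriers use the sodium gradient to concentrate their substrates. SLC36 and some SLC38 members sit in lysosomes and report on amino acids to mTORC1, the kinase complex that links nutrients to growth. In tumours, LAT1, its heavy chain and glutamine carriers are well known for feeding growth, and many SLC6 and SLC1 members are better known from the brain, where they clear neurotransmitters.

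About as many transporter probe sets lay above the array medians as below them. Of the 135, 51 exceeded the median on both arrays, 15 on 1 array and 69 on neither, so 48.9% were measured, against 56.8% of all probe sets with 1 symbol. These 66 measured probe sets represented 34 of the 55 genes, 29 of them with a representative above both floors. By family, 8 of 11 SLC38 genes, 6 of 7 SLC1 genes and both SLC36 genes were measured, together with 11 of 18 SLC6, 5 of 12 SLC7, 1 of 2 SLC3 and 1 of 3 SLC43 genes.

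None of the 34 measured transporter genes reached 2-fold after low values were raised to the floor. SLC1A1 has only a bound, and it passed 2-fold on the lower side (log2 ratio -1.07) with the floor at the 25th percentile and with no floor, so the count was then 1. Over all 12729 measured genes, 1.41% stood 2-fold or more above, and 1.47% 2-fold or more below, their empty vector level. At 1.5-fold, 3 transporters were higher, SLC36A1, SLC6A8 and SLC38A7, against 5.77% of all genes. SLC1A4 was the 1 transporter at least 1.5-fold lower, against 6.86% of all genes. Log2 ratios, array labelled RUNX2 over empty vector, ran from -0.59 to 0.80 with a median of 0.04, beside -0.06 over all genes. Of the 34, 19 lay above 0, compared with 42.6% of all measured genes. The families did not shift alike. Medians were 0.47 in SLC38, 0.60 in the SLC36 pair, 0.06 in SLC7, -0.12 in SLC1 and -0.06 in SLC6. The SLC6 sign turned with equal medians (0.03) and with loess (0.02). Over all genes the median also turned with equal medians (0.03), and it was -0.03 with loess. No test of the difference between families can be made with 1 array a group.

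**Figure D1:**
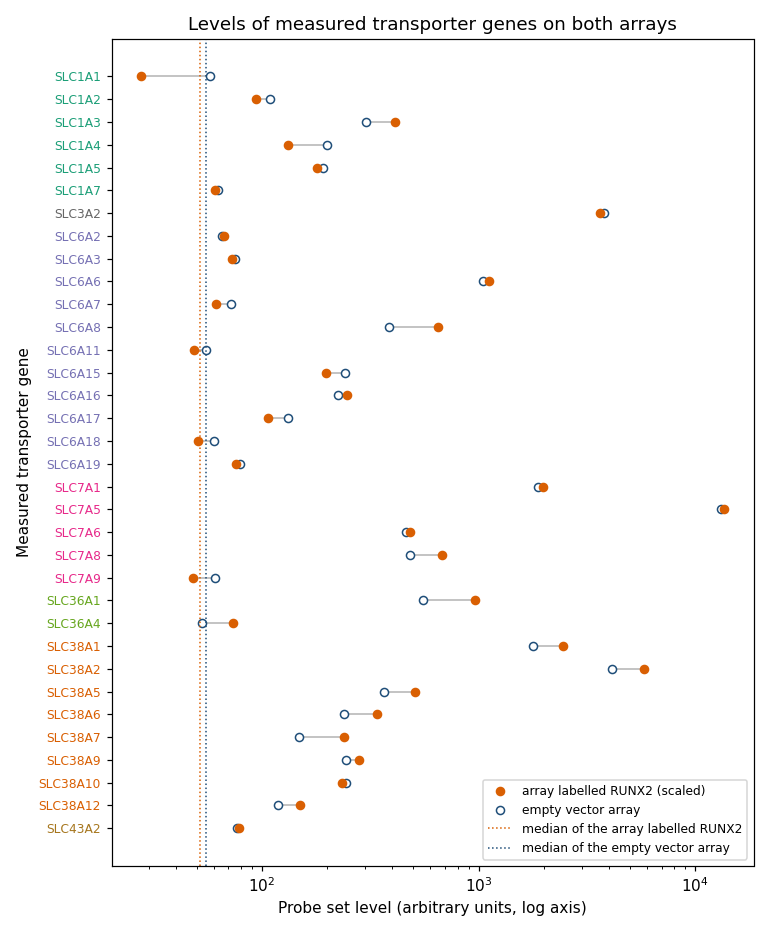
Levels of the 34 measured transporter genes (log axis, arbitrary units), filled for the array labelled RUNX2 after scaling and open for the empty vector array, with dotted lines at the array medians of 51.8 and 55.3. The SLC38 genes other than SLC38A10 lie further right on the array labelled RUNX2, while the points of SLC7A5, SLC3A2 and SLC7A1 nearly coincide.

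Most SLC38 carriers had higher levels on the array labelled RUNX2. These sodium-coupled neutral amino acid transporters move glutamine, alanine and other small neutral amino acids. Of 8 measured genes, 7 had a log2 ratio above 0, against 42.6% of all measured genes. All 8 representatives exceeded both floors, and of the 12026 genes on the arrays with such a representative, 5259 lay above 0. SLC38A2, the SNAT2 carrier whose synthesis responds to amino acid starvation, read 5794 on the array labelled RUNX2 and 4155 on the empty vector array in its brightest probe set, a log2 ratio of 0.48. Its other probe sets gave 4322 against 2817 (0.62) and 4137 against 2486 (0.73), so all 3 were higher. All 3 have IDs ending in _x_at or _s_at, classes that can match several transcripts. SLC38A2 therefore had no value when such probe sets were left out. SLC38A1, the SNAT1 glutamine carrier, read 2449 on the array labelled RUNX2 and 1785 on the empty vector array (0.46), with 1693 and 1026 (0.72) in another probe set. Near the floor, SLC38A1 probe sets went both ways. One read 71.8 on the array labelled RUNX2 and 48.4, under the floor, on the empty vector array (at least 0.38). Another was lower, at 49.5 on the array labelled RUNX2 and 61.5 on the empty vector array. SLC38A1 and SLC38A2 were thus higher by between 1.37-fold and 1.66-fold in every probe set well above the floor.

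The single probe sets of SLC38A5 and SLC38A6 moved by a similar amount. SLC38A5, the SNAT5 exchanger of glutamine, asparagine and glycine, had 509 on the array labelled RUNX2 and 366 on the empty vector array, 1.39-fold. SLC38A6, whose substrates are less well defined, had 340 and 238 in that order, 1.43-fold. Neither gene had a second probe set for comparison.

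The remaining members of the family spread more widely. SLC38A7, which exports glutamine and asparagine from lysosomes, read 239 on the array labelled RUNX2 and 149 on the empty vector array, 1.61-fold higher. It was also higher in 2 further probe sets above both floors, at 132 against 77.9 (log2 ratio 0.76) and 147 against 94.2 (0.64). Its remaining probe set, 222215_at, carried the same deposited value of 54.4 on both arrays. The 1.5-fold call of SLC38A7 was lost as a mean over its probe sets (0.50), when an offset replaced the floor (0.51) and with the 75th percentile as the floor (0.28). SLC38A9, the arginine-sensing member of the lysosomal mTORC1 machinery, had 280 on the array labelled RUNX2 and 243 on the empty vector array, a log2 ratio of 0.20 and within the spread between probe sets. Its other measured probe set read 46.6 and 55.5 (a bound of -0.10), and the mean over both was 0.052. SLC38A12 had 151 and 118 in that order (0.35). SLC38A10 was the measured member below 0, with 235 on the array labelled RUNX2 and 244 on the empty vector array (-0.06, turning to 0.03 with equal medians), and its other probe sets went both ways. One read 187 and 139 (0.43), another 58.0 and 63.3 (-0.13), and 3 under the floor on the array labelled RUNX2 had bounds from -0.21 to -0.16. SLC38A3, SLC38A4 and SLC38A11 stayed under the floor, SLC38A3 the nearest to it at 45.3 on the array labelled RUNX2 and 54.2 on the empty vector array.

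SLC36A1 had the highest log2 ratio when 1 probe set stood for each gene. It encodes PAT1, a proton-coupled carrier of proline, glycine and alanine at the plasma membrane and in lysosomes. Probe set 213119_at read 964 on the array labelled RUNX2 and 555 on the empty vector array, 1.74-fold higher, and 2.68% of all measured genes had a ratio at least as high. The other SLC36A1 probe set lay just above the floor, at 55.6 and 55.5, and showed no difference. The mean of both probe sets gave a log2 ratio of 0.40 in place of 0.80, so the 1.5-fold call and the rank rest on 213119_at. As means over probe sets, SLC6A8 (0.65), SLC38A2 (0.61), SLC38A6 (0.51) and SLC38A7 (0.50), among others, stood above SLC36A1. SLC36A4, a related carrier of high affinity for proline and tryptophan, was at least 1.32-fold higher, with 73.2 on the array labelled RUNX2 and 52.9, under the floor, on the empty vector array.

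**Figure D2:**
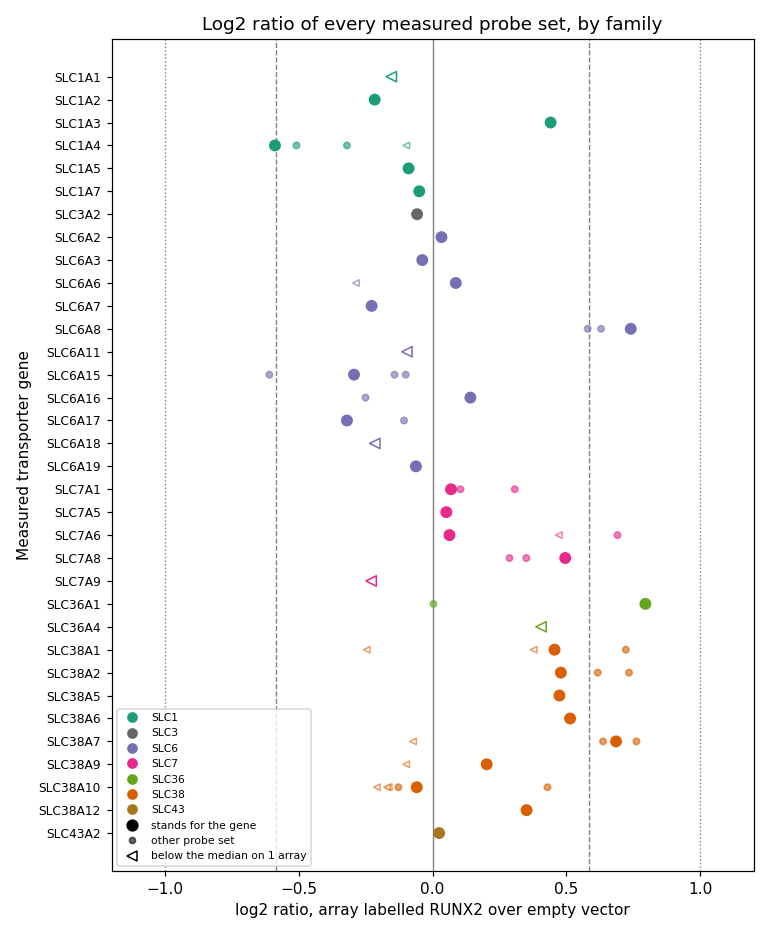
Log2 ratio, array labelled RUNX2 over empty vector, of each of the 66 measured probe sets, by gene and coloured by family. Large symbols stand for the gene, small ones are its other probe sets, triangles mark probe sets below the floor on 1 array, and dashed and dotted lines mark 1.5-fold and 2-fold. Of the large symbols, SLC36A1, SLC6A8 and SLC38A7 lie beyond the upper dashed line and SLC1A4 just beyond the lower one. Among the other genes, small symbols of SLC38A1, SLC38A2 and SLC7A6 lie beyond the upper dashed line. A small symbol of SLC6A15 lies beyond the lower one.

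Windows of 250 bases before the annotated start sites, from RefSeq on GRCh38.p14, were searched on both strands for 3 short motifs. These were the E-box CACGTG, which is part of the element bound by lysosomal and MYC-type factors, the RUNX core TGTGGT, and TGATGNAA, the core of the composite site bound by ATF4 with a C/EBP partner. Of the 55 genes, 42 had at least 1 window, 64 windows in all. The E-box occurred in 9 of the 64 windows (14.1%) and in 6.34% of all 35116 windows. The RUNX core occurred in 5 (7.81%), against 10.98% of all windows, and TGATGNAA in 2 (3.13%), against 3.14%. Shown are the window of SLC36A1, described above, which holds 2 E-boxes at 43 and 8 bases before the start, that of SLC38A1, which is the SLC38 window with a RUNX core, and that of SLC7A5, which has an E-box but a level close to equal on both arrays. Motif matches are in capitals, and each window is written 5′ to 3′ on the strand of its gene. They lie at chr5:151447353-151447602 on the plus strand, chr12:46267988-46268237 on the minus strand and chr16:87869508-87869757 on the minus strand.
SLC36A1: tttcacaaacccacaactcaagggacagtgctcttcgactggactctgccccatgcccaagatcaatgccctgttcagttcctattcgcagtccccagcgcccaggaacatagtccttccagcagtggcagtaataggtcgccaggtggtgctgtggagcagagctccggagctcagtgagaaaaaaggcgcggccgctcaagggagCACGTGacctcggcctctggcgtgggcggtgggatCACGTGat
SLC38A1: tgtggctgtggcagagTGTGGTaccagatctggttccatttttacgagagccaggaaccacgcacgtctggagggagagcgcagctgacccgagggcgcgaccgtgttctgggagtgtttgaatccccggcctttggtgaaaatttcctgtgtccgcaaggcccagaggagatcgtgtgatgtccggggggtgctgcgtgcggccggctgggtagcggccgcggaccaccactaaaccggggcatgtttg
SLC7A5: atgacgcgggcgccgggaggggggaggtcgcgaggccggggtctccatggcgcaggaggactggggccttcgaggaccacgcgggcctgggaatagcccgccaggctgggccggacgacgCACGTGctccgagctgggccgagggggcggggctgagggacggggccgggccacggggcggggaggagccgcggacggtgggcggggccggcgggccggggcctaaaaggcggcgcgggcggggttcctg

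A letter match describes the window and does not show a bound site. The E-box stood before genes at quite different ratios, 0.80 for SLC36A1, 0.50 for SLC7A8, 0.47 for SLC38A5, 0.14 for SLC6A16, 0.05 for SLC7A5, -0.05 for SLC1A7 and -0.09 for SLC1A5. The RUNX core likewise stood before SLC38A1 (0.46), SLC1A3 (0.44) and SLC43A2 (0.02), and TGATGNAA before SLC1A3 and SLC1A5.

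The LAT1 system was close to equal on both arrays. SLC7A5, which encodes the LAT1 exchanger of leucine and other large neutral amino acids, read 13643 on the array labelled RUNX2 and 13164 on the empty vector array, a log2 ratio of 0.05. SLC3A2, its CD98 heavy chain, read 3657 on the array labelled RUNX2 and 3807 on the empty vector array, a log2 ratio of -0.06 that turned to 0.03 with equal medians. Each has 1 probe set, with an ID ending in _s_at, and both differences are far smaller than the spread between probe sets of a gene.

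Other SLC7 carriers ranged from level to moderately higher. SLC7A1, the CAT1 carrier of arginine and lysine, read 1979 on the array labelled RUNX2 and 1887 on the empty vector array (log2 ratio 0.07), with 0.10 and 0.31 in 2 further probe sets. SLC7A8, the LAT2 exchanger, read 680 on the array labelled RUNX2 and 482 on the empty vector array, 1.41-fold higher, and 2 further ones gave 0.35 and 0.29. SLC7A6, which pairs with SLC3A2 to exchange arginine for glutamine, was split between its probe sets. The brightest had 483 on the array labelled RUNX2 and 463 on the empty vector array (0.06), while another had 124 and 76.7 (0.69) and the last, under its floor on the empty vector array, gave at least 0.47. SLC7A9, the cystine exchanger of kidney and gut, was at least 1.17-fold lower, with 48.3 on the array labelled RUNX2 and 60.8 on the empty vector array, and its heavy chain partner SLC3A1 was under the floor on both arrays. The neutral exchanger SLC7A10, the cationic carriers SLC7A2 and SLC7A3, SLC7A4, SLC7A7, SLC7A13 and SLC7A14 were also under the floor. Of the SLC43 family, SLC43A2, the LAT4 carrier of branched-chain amino acids, was near the floor at 78.2 on the array labelled RUNX2 and 76.9 on the empty vector array, and SLC43A1 and SLC43A3 were below it.

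SLC1 genes went both ways. SLC1A5, the ASCT2 glutamine carrier, read 179 on the array labelled RUNX2 and 191 on the empty vector array, a log2 ratio of -0.09 that turned to 0.0029 with equal medians. SLC1A4, the ASCT1 carrier of serine and alanine, read 133 on the array labelled RUNX2 and 200 on the empty vector array, 1.504-fold lower. Its other probe sets were lower by less, with 121 against 172 (-0.51), 124 against 155 (-0.32) and a bound of -0.10 near the floor. The 1.5-fold call of SLC1A4 lies at the threshold and was lost on the deposited scale, with equal medians, with loess, when an offset replaced the floor and as a mean over probe sets. All 4 of its measured probe sets have IDs ending in _x_at or _s_at, so SLC1A4 had no value without such probe sets. Raising the floor to the 75th percentile gave the gene a log2 ratio of 0.0097, since its value on the array labelled RUNX2 was then raised to the floor.

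Glutamate transporters of the family showed 1 higher gene. SLC1A3, the EAAT1 carrier best known from astrocytes, read 410 on the array labelled RUNX2 and 302 on the empty vector array, 1.36-fold higher. SLC1A2, the EAAT2 carrier, had 94.0 and 109 in that order in 1 of its 6 probe sets (-0.22), and the other 5 were under the floor. SLC1A1, the EAAT3 carrier, lay below the floor on the array labelled RUNX2, at 27.6 against 57.7 on the empty vector array, a bound of -0.15 on the log2 scale. SLC1A7, a retinal glutamate carrier, had the same deposited value of 62.9 on both arrays, and SLC1A6 was under the floor.

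Of the SLC6 carriers of creatine and taurine, the creatine carrier passed 1.5-fold and the taurine carrier did not. SLC6A8, which takes up creatine, read 647 on the array labelled RUNX2 and 387 on the empty vector array, 1.67-fold higher. All 3 of its probe sets were higher, the others at 485 against 324 (0.58) and 470 against 304 (0.63). These 2 have IDs ending in _x_at, a class that can match near-identical copies, and SLC6A8 has such copies. SLC6A6, the taurine carrier, read 1116 on the array labelled RUNX2 and 1051 on the empty vector array, a log2 ratio of 0.09. Its other measured probe set went the other way, at 51.6 on the array labelled RUNX2 and 63.2 on the empty vector array (a bound of -0.29), and the mean over both was -0.10.

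The SLC6 amino acid carriers known from brain, SLC6A15 and SLC6A17, were both below 0. SLC6A15, a carrier of branched-chain amino acids and proline, was lower in all 4 measured probe sets, from -0.61 to -0.10. The one that stands for it read 198 on the array labelled RUNX2 and 242 on the empty vector array (-0.29). SLC6A17, a vesicular relative, read 106 and 133 in that order (-0.32), with -0.11 in its other probe set. SLC6A16, an orphan member, read 247 and 224 (0.14), with -0.25 in its other probe set near the floor and -0.054 as a mean over both.

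Transporters of monoamines and GABA were near the floor or under it. SLC6A2, the noradrenaline transporter, was measured in 1 of 8 probe sets at 67.0 on the array labelled RUNX2 and 65.5 on the empty vector array (0.03), and SLC6A3, the dopamine transporter, had 73.0 and 75.01 (-0.04). The proline carrier SLC6A7 had 61.2 and 71.7 (-0.23), and the gut and kidney carriers SLC6A19 and SLC6A18 had 76.2 and 79.5 (-0.06) and 50.7 and 60.2 (a bound of -0.22). SLC6A11, a GABA carrier, had 48.7 on the array labelled RUNX2 and 55.4 on the empty vector array, just above the floor there. The serotonin transporter SLC6A4, the glycine transporters SLC6A5 and SLC6A9, the GABA and betaine carriers SLC6A12 and SLC6A13, the broad carrier SLC6A14 and the imino acid carrier SLC6A20 were not above the floor on either array. SLC6A2 and SLC6A3, the monoamine transporters above both floors, differed by less than the spread between probe sets. Among the 7 measured neuron and glia markers, GFAP was higher on the array labelled RUNX2. The others, SYT1 and GAD1 among them, were lower there, as given above.

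**Figure D3:**
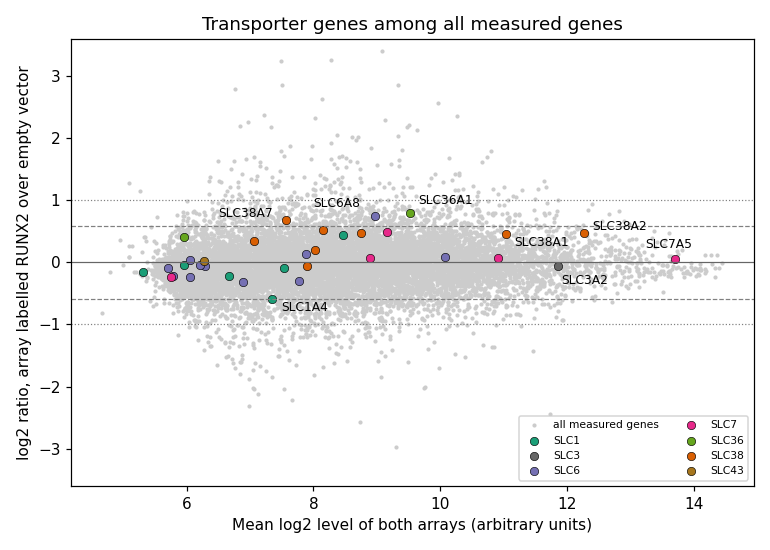
Log2 ratio, array labelled RUNX2 over empty vector, against mean log2 level for all 12729 measured genes in grey and the 34 transporter genes coloured by family. Dashed and dotted lines mark 1.5-fold and 2-fold, and all transporter genes lie inside the dotted lines.

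The ratio of all genes depended on level, which touches the members near the floor. With all genes in 4 bins of mean level, the lowest bin's median over all genes was -0.15, and the 13 transporters there had -0.10. In the next bin the medians were 0.14 over 9 transporters and -0.05 over all genes. In the bin after it they were 0.49 over 6 transporters and -0.01 over all genes, and in the highest 0.08 over 6 transporters and -0.01 over all genes. The share of all genes above 0 also differed by level, with 859 of 3183 in the lowest bin and 1438 of 3182 in the next. In the upper bins it was 1564 of 3182 and 1567 of 3182. Of the 135 probe sets, 5 had equal deposited values on both arrays in every digit (3.70%), beside 2.65% of all probe sets, and no change can be read from these.

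Genes around the transporters were described from 5 lists. Amino acid response genes, the ATF4 factors and targets that respond to amino acid shortage, stood at a median log2 ratio of 0.23 (24 measured genes), with 16 above 0, beside 42.6% of all measured genes. ATF3, a stress-induced repressor, was the 1 member at least 2-fold higher, at 878 on the array labelled RUNX2 and 297 on the empty vector array, with 0.16 in another probe set above both floors. At 1.5-fold, 5 members were higher and 0 were lower, beside 5.77% and 6.86% of all genes. These were ATF3, CHAC1 (0.73), which degrades glutathione, JDP2 (0.70), STC2 (0.69, with 0.058 in its other probe set) and TRIB3 (0.62), a feedback inhibitor of ATF4. EIF4EBP1, a repressor of translation initiation, was lowest at -0.48, and asparagine synthetase, ASNS, read 1910 on the array labelled RUNX2 and 2016 on the empty vector array (-0.08). ATF4 itself had 0.21. Further probe sets of CEBPG (0.61, with -0.090 in its representative), PSAT1 (0.69) and PPP1R15A (at least 0.62) also passed 1.5-fold on the higher side.

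Sensing genes and enzymes had medians near that of all genes (-0.06). Lysosomal sensing and mTORC1 genes had a median of -0.06 over 30 measured genes, 9 of them above 0, beside 42.6% of all measured genes. They ran from NPRL2, a subunit of an inhibitory complex, at -0.51 to FLCN at 0.48, with -0.51 and -0.14 in other FLCN probe sets. Enzymes of glutamine, glutamate, serine and branched-chain amino acid metabolism had a median of -0.08 over 21 genes, from glutamate dehydrogenase, GLUD1, at -0.58 to PSAT1, an enzyme of serine synthesis, at 0.55. No representative in either list passed 1.5-fold, beside 5.77% of all genes higher and 6.86% lower. Further probe sets of 4 genes did pass it. BCAT1, which starts the breakdown of branched-chain amino acids, counted at 0.38 and was higher in all 4 probe sets, with 1.55 (214 on the array labelled RUNX2, 73.2 on the empty vector array) and 1.02 in those past 2-fold. PSAT1 had 0.69 in its other probe set. SESN3, a sestrin of the mTORC1 pathway, counted at -0.27 and had 1.14 in its other probe set, while NPRL3, which works with NPRL2, counted at 0.055 and had -0.71 in another. Partner proteins of the transporters had a median of -0.34 over 9 genes, with 0 representatives past 1.5-fold (5.77% of all genes higher, 6.86% lower). They ran from CLTRN, which brings SLC6A19 to the membrane, at -0.39 to the ubiquitin ligase NEDD4L at 0.25. Other probe sets of NEDD4L ran down to -0.47. CD44, an adhesion receptor that stabilises SLC7A11 at the membrane, counted at 0.17 through its representative, with 3427 on the array labelled RUNX2 and 3050 on the empty vector array. Its other 9 measured probe sets were all below 0, and 6 of them were past 1.5-fold lower, from -0.96 to -0.62, one of them with 1192 on the array labelled RUNX2 and 2317 on the empty vector array. The direction of CD44 therefore depends on the probe set.

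The list of other amino acid, peptide and vesicular carriers, which also holds SLC7A11, included 1 gene past 2-fold. SLC25A13, the mitochondrial aspartate and glutamate exchanger citrin, read 743 on the array labelled RUNX2 and 322 on the empty vector array, 2.31-fold higher, and 228 against 123 (0.89) in another probe set. The list as a whole had a median of 0.23 over 15 measured genes, 11 of them above 0 (42.6% of all genes), and at 1.5-fold 3 were higher and 1 was lower (5.77% and 6.86% of all genes). The lysosomal cysteine carrier gene MFSD12 had 0.89 in its brightest probe set and -0.03 in the other. The cystine exchanger SLC7A11 had 0.61, at 1680 on the array labelled RUNX2 and 1104 on the empty vector array. SLC25A12, the close relative of SLC25A13, passed 1.5-fold in a further probe set (0.83). The peptide carrier SLC15A2 was lowest at -0.63, with -0.41 in its other probe set.

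**Figure D4:**
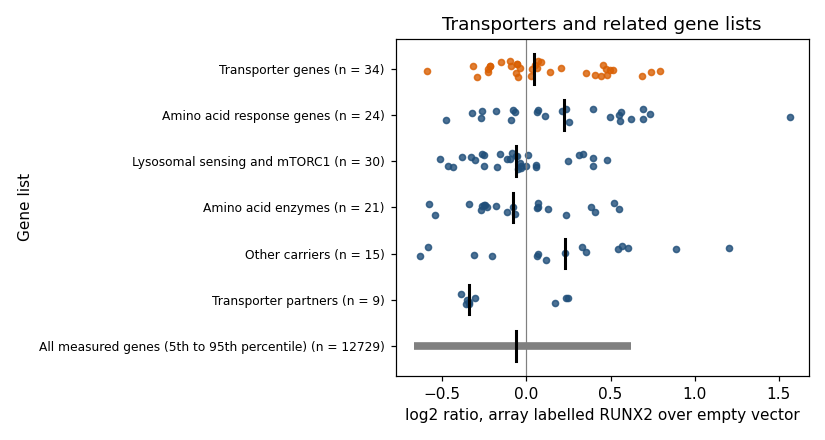
Log2 ratio, array labelled RUNX2 over empty vector, of the measured genes of each list, with black bars at the medians (0.04 for transporters, 0.23 for amino acid response genes, -0.06 for sensing genes, -0.08 for enzymes, 0.23 for other carriers, -0.34 for partners) and a grey bar from the 5th to the 95th percentile of all 12729 genes. Vertical scatter within a list carries no meaning, and ATF3 and SLC25A13 are the rightmost points of their lists.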

How the data were processed

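Total RNA of the 2 samples was labelled with biotin as cRNA and hybridised to Affymetrix arrays (n = 1 a group), as the labels' protocols state. The table that the authors deposited holds linear intensities, 1 for each of 54675 probe sets on each array. MAS5 is named in the submitters' processing notes, and its version and scaling target are not given in the sources used here. The title of each sample gave its group.

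The 62 control probe sets were left out, and a factor of 0.966 on the array labelled RUNX2 made the 2% trimmed means equal (206 on the array labelled RUNX2, 199 on the empty vector array). Symbols came from the platform annotation, in which 41091 probe sets had 1 symbol, 1801 several and 11721 none here; for 41037, the Entrez ID gave the symbol from RefSeq's table of GRCh38.p14. The symbol SLC7A6OS was taken as an opposite-strand gene and left out. The fold on the log2 scale was taken after raising low values to the array median. All measured transporters are named, and of each list the members past 2-fold with the highest and lowest. Members past 1.5-fold and some others of the lists were named after their values were seen. The members and lists were chosen with earlier results of these data known. Python 3.11.15, numpy 2.4.6, pandas 2.3.3 and statsmodels 0.14.6 were used, and scripts were tested on simulated data. Alternatives covered scaling, floor, choice of probe set and threshold. Precision is limited by having 1 array a group.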

Additional observations from a re-analysis of the deposited data

How the results depend on the processing

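No transporter gene was 2-fold higher under any alternative tried, and 1 was 2-fold lower with the floor at the 25th percentile and with no floor, SLC1A1 at -1.07. With a threshold of 1.5-fold the counts were 3 higher and 1 lower. After seeing the data, the 1.5-fold counts were also taken under each alternative, and gave 2 to 5 higher (5 with equal medians) and 0 to 2 lower. Over all 12729 genes, equal medians gave 1042 at least 1.5-fold higher, beside 734 in the main setting. It gave 603 at least 1.5-fold lower, beside 873. The median over measured transporters stayed within 0.1 of 0.04 except with the floor at the 75th percentile, where it was 0.20 over 19 genes, and its sign turned with the floor at the 25th percentile (-0.050) and as a mean over probe sets (-0.0068). The 75th percentile floor also gave 0.23 for SLC1, 0.11 for SLC6 and 0.80 for SLC36, and turned SLC1A4 to 0.0097, because its value on the array labelled RUNX2 was raised to that floor. At the 25th percentile, SLC3 had -0.31 and SLC7 -0.060. SLC7 had 0.31 without probe sets ending in _x_at or _s_at, a setting that left SLC3 without a value and SLC7 with SLC7A1 alone. It left 24 of the 34 measured transporter genes with a value, and SLC1A4, SLC38A2, SLC7A5, SLC7A6 and SLC7A8 were among those without. SLC36, with 2 genes, had 0.47 when an offset replaced the floor, 0.40 as a mean over probe sets and 0.80 over genes above the floor on both arrays, a setting added after seeing the data. The SLC38 median kept its sign, from 0.40 to 0.56, with 5 to 8 genes above 0. Of 344 single-gene values under an alternative, 337 moved by less than the spread between probe sets of a gene, and 18 had another sign, in 12 genes. No paired analysis was possible because each group has 1 array. The cause of the other changes was not tested.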

Other observations

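Probe sets that name several genes were kept out of the comparison, and 5 of 9 such probe sets with a family symbol were above the floor. Probe set 1555216_a_at, shared by the LAT1 pseudogenes SLC7A5P1 and SLC7A5P2, read 52.3 on the array labelled RUNX2 and 156 on the empty vector array, 2.98-fold lower. Its value on the array labelled RUNX2 lies just above the floor of 51.8. In contrast, 208118_x_at, which also names SMG1P3, read 273 on both arrays. Probe set 215812_s_at, shared by SLC6A8 and its copies SLC6A10P and SLC6A10PB, read 432 on the array labelled RUNX2 and 286 on the empty vector array, 1.51-fold higher. The opposite-strand gene SLC7A6OS had log2 ratios of -0.73 and -0.10 in its 2 probe sets, and SLC38A2-AS1 had -0.29, at 76.7 on the array labelled RUNX2 and 93.9 on the empty vector array.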
